A study of Mus musculus with 6 samples.

Results

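Genes that prime blood progenitors for the lymphoid lineages, or that mark B, T and NK cells, were examined in bone marrow stem and progenitor cells of mice lacking the NF-κB subunit p65 (RelA) and of wild-type mice. The list held 36 genes, chosen by name with earlier results of these data known. Of these, 33 had a row of the deposited table with exactly 1 gene symbol, out of 19938 genes measured, and Il2rg, Tcf7 and Lck were not analysed here. For a gene with several rows the row with the highest mean over the 6 arrays was kept, which affected only Ighm. The 17 measured early lymphoid regulators (broad early transcription factors, recombination enzymes and receptor chains, and T-lineage regulators) were kept apart from 16 measured B and T lineage genes.

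The groups were 3 Affymetrix arrays of p65 knockout (KO) and 3 of p65 wild-type (WT) mice, each array read from its title as 1 mouse. In both groups the cells were bone marrow cells lacking lineage markers and Flk2 and carrying c-kit and Sca-1 (KLSF in the titles), so no comparison with another cell population was possible. The series title places the deletion in the haematopoietic compartment. The Cre driver or other means of deletion, and the strain and age of the mice, are not given in the sources used here. Values are log2 signals as deposited, and every fold change is KO over WT.

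Haematopoietic stem and multipotent cells transcribe low amounts of genes of several lineages before they commit, a state known as lineage priming. Factors such as Ikaros and the E proteins open lymphoid genes early, and the recombination enzymes and the interleukin-7 receptor follow in lymphoid progenitors. EBF1 and PAX5 then fix the B lineage, while Notch1, TCF-1, GATA3 and BCL11B fix the T lineage. Flk2 (the receptor encoded by Flt3) is high on lymphoid-primed progenitors, which a gate on Flk2-negative cells leaves out.

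The arrays were not alike in quality. WT replicate 1 had the narrowest signal range (SD 2.03, against 2.22 to 2.29 in the other arrays) and the lowest array weight in limma (0.116, against 0.935 to 2.2). Results are therefore also given without it. Rela itself had log2 signals of 7.33, 7.48 and 7.35 in KO, against 7.52, 7.89 and 7.92 in WT, which did not overlap. The log2 fold change was -0.39 (limma adjusted p = 0.209, and 0.04 without WT replicate 1), and probes outside a deleted part check nothing. Of the sort's own markers, Kit had log2 signals of 10.02 to 10.18 in KO and 10.08 to 10.63 in WT, Flt3 had 7.39 to 7.94 in KO and 7.31 to 8.08 in WT, and Ly6a was not analysed here. With Cd34, Slamf1 and Procr, further stem and progenitor cell markers, 0 of 5 passed (limma, 1 lower at an unadjusted p under 0.05), with log2 fold changes between -0.69 for Procr and 0.06 for Flt3. Without WT replicate 1, Kit (-0.48) and Procr (-0.86) passed and the median of the 5 was -0.32. Defining genes of mature B cells (5 of 7 measured) lay between 2.93 and 6.61 and those of mature T and NK cells (9 of 9 measured) between 3.06 and 6.35 over all 6 arrays. A set of 27 genes restricted to non-blood tissues, such as albumin and glial fibrillary acidic protein genes, spanned 3.07 to 6.74, so signals up to 6.74 are not shown here to lie above background. Probes differ in response, so this span is no ranking of genes. Markers of neutrophil and monocyte precursors differed most between the groups. All 8 measured (Elane, Mpo, Prtn3, Ctsg, Ms4a3, Cebpe, Csf1r and Ly86) passed the test as higher in KO, and their mean log2 signal was 10.1, 10.2 and 9.86 in KO and 7.52, 7.71 and 7.66 in WT. In bulk samples fewer cells of a type and less RNA per cell cannot be told apart.

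Most lymphoid genes did not pass the test between KO and WT. Tox fell and Nkg7 rose, and the other 31 measured members did not pass (limma, Benjamini-Hochberg adjusted p under 0.05 over all 19938 genes). These 2 calls stand against a background of 0.818% of all genes, 0.687% higher and 0.13% lower (limma). The list was chosen with earlier results of these data known, so this comparison is no independent test of it. The median log2 fold change of the 33 members was 0.03, against -0.04 over all genes, with 18 members positive and 15 negative, where 54.1% of all genes were negative. Groups did not overlap for 8 of 33 members (3 higher and 5 lower), against 34.6% of all genes (19.2% higher and 15.4% lower), and 5 of 33 had an unadjusted p under 0.05, against 21.6% of all genes. Neither share exceeds its background, and 21.6% is also the background of every other count given here at an unadjusted p under 0.05. Early regulators had a median log2 fold change of 0.07 and B and T lineage genes of -0.08. Without WT replicate 1, Tox, Nkg7 and Cd3d passed, against 4.66% of all genes (3.28% higher and 1.38% lower), and the medians of the 2 classes were -0.12 and -0.06. With the replicate number as a block, Tox and Nkg7 again passed while the background was 1.87% (1.41% higher and 0.451% lower).

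**Figure D1:**
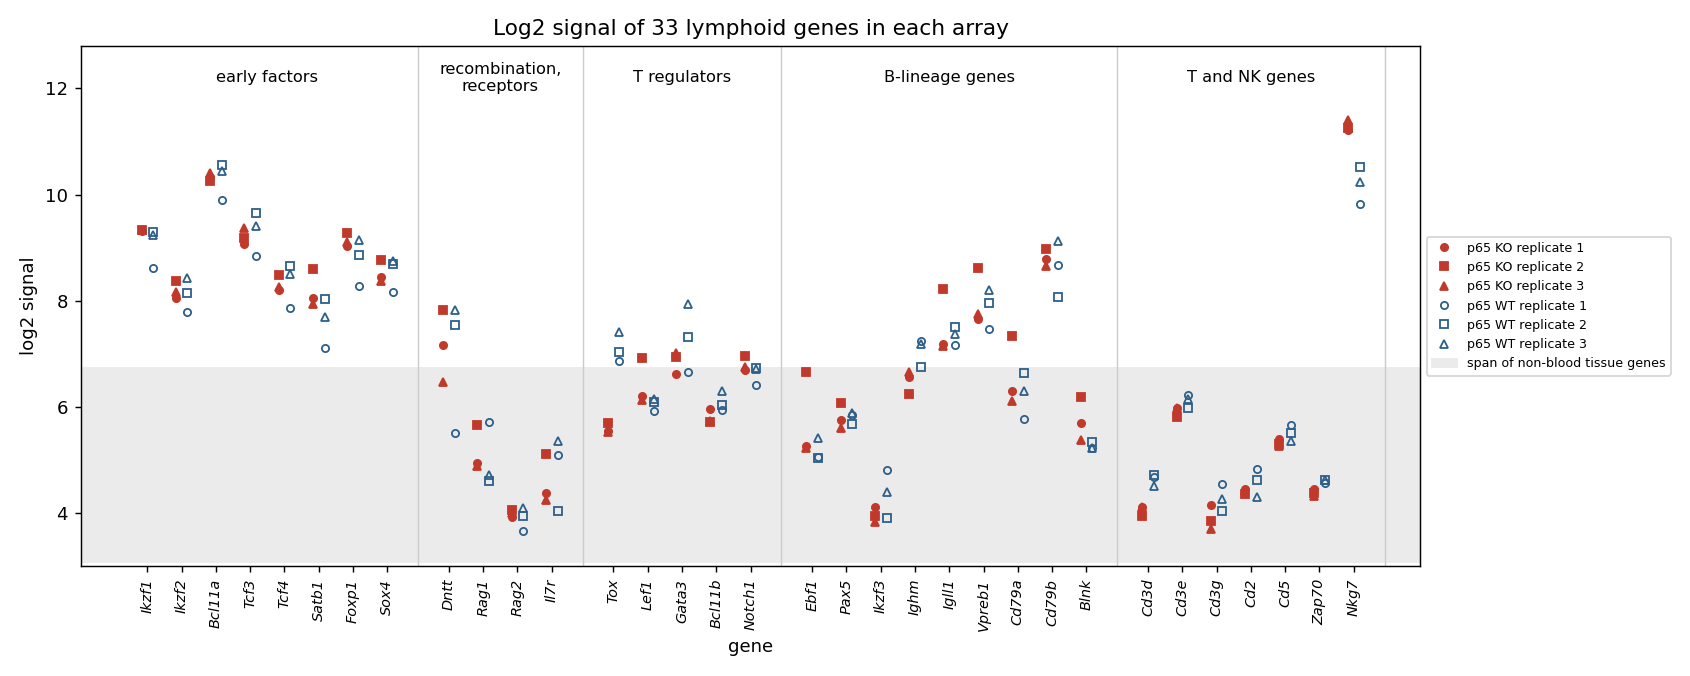
Log2 signal (vertical axis) of each of the 33 measured lymphoid genes (horizontal axis, grouped by role), with the 3 KO arrays as filled red symbols left of the 3 WT arrays as open blue symbols. The grey band is the span of 27 non-blood tissue genes, 3.07 to 6.74. Tox lies lower and Nkg7 higher in all 3 KO arrays, and most T and NK genes lie inside the band in both groups.

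Tox, the gene of an HMG-box nuclear factor needed for CD4 T cell and innate lymphoid cell development, was the T-lineage regulator that separated the genotypes. Its log2 signal was 5.55, 5.70 and 5.53 in KO, against 6.86, 7.04 and 7.41 in WT. The lowest WT mouse lay more than 1 log2 unit above the highest KO mouse. Tox averaged 5.59 ± 0.09 in KO and 7.10 ± 0.28 in WT (SD, n = 3 each), a log2 fold change of -1.51 (SE 0.17, 95% interval -1.90 to -1.12, limma adjusted p = 0.0125), or 2.85-fold lower. All 3 KO values lie within the span of the non-blood tissue genes and no WT value does, so the KO level may be at background and the size of the fall is uncertain. Over 15 alternatives the log2 fold change ran from -1.65 to -1.36 (adjusted p 0.000304 to 0.117). The call held in 12 of them and was lost when KO replicate 1, 2 or 3 was left out (-1.49, -1.56 and -1.48, adjusted p 0.117, 0.0791 and 0.0836). Without WT replicate 1 it was -1.63. An exact permutation test (two-sided) of Tox gave p = 0.1, which is the least that 3 against 3 arrays can reach.

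The other genes of the Tox family did not pass. Tox2 had log2 signals of 5.35, 5.36 and 5.59 in KO, against 5.74, 5.53 and 5.95 in WT, with overlapping groups (log2 fold change -0.31). Tox3 had a log2 fold change of -0.25 and Tox4 of 0.83 (limma adjusted p = 0.415 and 0.233). The difference between Tox and its relatives was not tested.

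Among the remaining T-lineage regulators none passed. Gata3, the zinc finger factor of early T cells and type 2 helper cells, had log2 signals of 6.62, 6.94 and 7.02 in KO, against 6.66, 7.32 and 7.93 in WT. The groups overlapped through WT replicate 1, the log2 fold change was -0.44 (limma adjusted p = 0.376), and with array weights it was -0.76 (adjusted p = 0.0445, against a background of 8.02%, 5.6% higher and 2.42% lower). Bcl11b, which holds T cell identity, had 5.96, 5.72 and 5.73 in KO and 5.94, 6.04 and 6.29 in WT (log2 fold change -0.29, 95% interval -0.64 to 0.07). Lef1, the Wnt-pathway partner of TCF-1, had 6.20, 6.92 and 6.13 in KO, against 5.92, 6.10 and 6.15 in WT. Its excess sits in KO replicate 2, and the log2 fold change of 0.36 was 0.11 without that array. Notch1, the receptor that starts the T cell programme, had 6.69, 6.96 and 6.75 in KO and 6.42, 6.73 and 6.71 in WT (0.18, 95% interval -0.17 to 0.53).

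**Figure D2:**
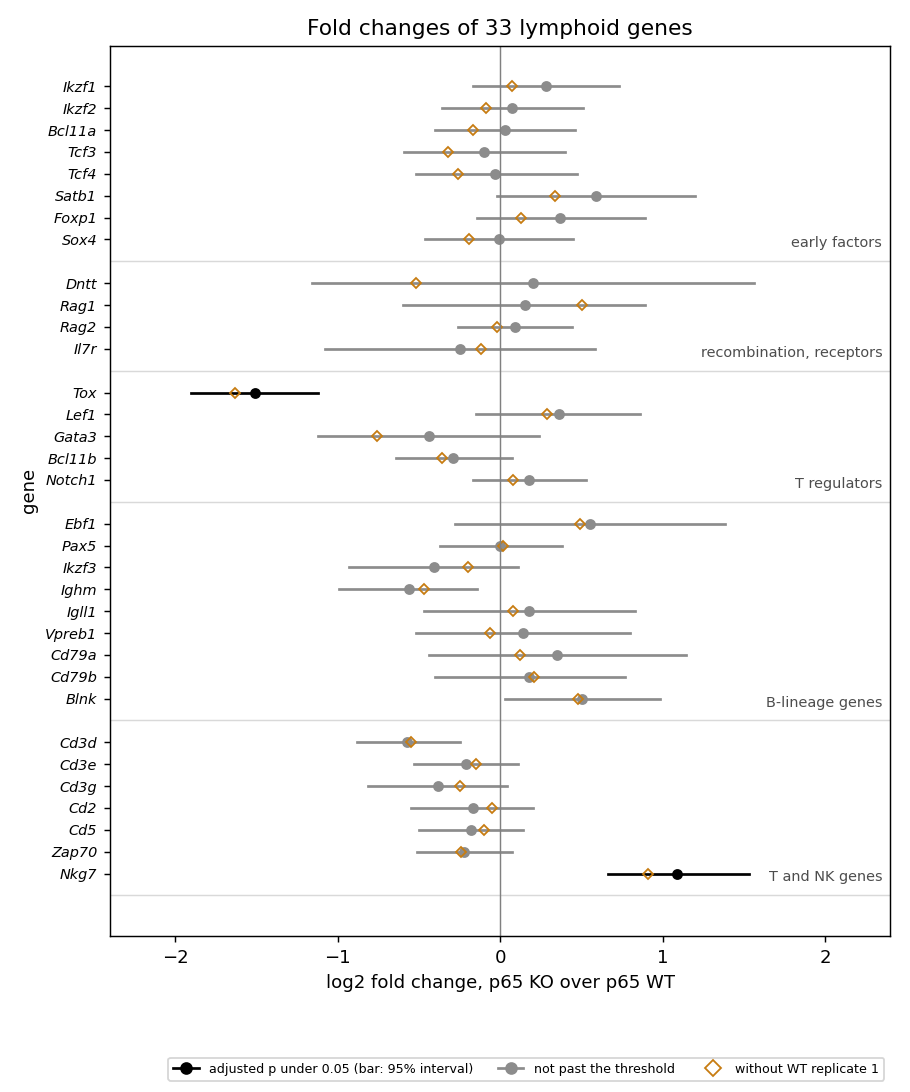
Log2 fold change, KO over WT (horizontal axis), of the 33 measured genes (vertical axis, by role), with 95% intervals from limma. Black marks Tox and Nkg7, which passed the test, grey the others, and open diamonds give the value without WT replicate 1, which moves Dntt from 0.20 to -0.52 and Gata3 from -0.44 to -0.76.

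The 8 broad early transcription factors showed no call in either direction (limma, with none at an unadjusted p under 0.05), and their median log2 fold change was 0.05. In all 8 the lowest of the 6 arrays was WT replicate 1, against 39% of all genes, and without that array the median was -0.13. All 8 are in the brightest of 3 equal groups of genes by mean level. The share of 39% was not counted within that group, so the 8 are not shown to be particular. Ikzf1, the gene of Ikaros, had log2 signals of 9.32, 9.33 and 9.33 in KO, against 8.61, 9.29 and 9.23 in WT. The KO values barely varied, and only WT replicate 1 lay far from them. Its log2 fold change of 0.28 (95% interval -0.17 to 0.73) was 0.07 without that array and -0.02 under cyclic loess normalization.

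Satb1, a chromatin organiser that promotes lymphoid output of stem cells, had 8.06, 8.59 and 7.94 in KO and 7.11, 8.04 and 7.69 in WT. The groups overlapped, and the log2 fold change was 0.59 (SE 0.27, limma adjusted p = 0.243), or 0.34 without WT replicate 1. Foxp1, a forkhead factor needed for early B cell development, had 9.03, 9.28 and 9.10 in KO, against 8.28, 8.87 and 9.15 in WT (0.37, adjusted p = 0.333). Both values stayed positive in all 15 alternatives without passing in any.

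Bcl11a, required for the earliest lymphoid progenitors, had 10.33, 10.25 and 10.40 in KO and 9.90, 10.55 and 10.44 in WT. Tcf3, the gene of the E proteins E12 and E47, had 9.07, 9.18 and 9.37 in KO and 8.85, 9.65 and 9.40 in WT. Tcf4, the gene of the related E protein E2-2, had 8.21, 8.49 and 8.26 in KO, against 7.87, 8.65 and 8.51 in WT. In these genes, and in Sox4, an HMG-box factor needed in B cell development, and the Ikaros relative Ikzf2, the WT arrays spanned a wider range than the KO arrays. Their log2 fold changes lay between -0.10 and 0.07, and the sign of each turned under at least 1 of the scalings (quantile, cyclic loess or median centring). The 95% interval was -0.59 to 0.40 for Tcf3 and -0.40 to 0.46 for Bcl11a, so changes within these bounds are not excluded.

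Recombination and receptor genes varied more between mice than between genotypes, and none of the 4 measured passed (limma, none at an unadjusted p under 0.05). Dntt, which encodes the terminal transferase that adds bases at antigen receptor joints, had log2 signals of 7.16, 7.82 and 6.47 in KO, against 5.50, 7.54 and 7.82 in WT. WT replicate 1 held the lowest value and KO replicate 3 the next. The log2 fold change was 0.20 (95% interval -1.16 to 1.56), and it was -0.52 without WT replicate 1 and -0.13 without KO replicate 2. Rag1 and Rag2, adjacent genes of the 2 recombinase subunits, lay inside the non-blood span in all arrays. Rag1 had 4.95, 5.65 and 4.88 in KO and 5.71, 4.60 and 4.72 in WT, so 1 array of each group stood above its other members. Rag2 had 3.92 to 4.05 in KO and 3.67 to 4.09 in WT. Il7r, the interleukin-7 receptor alpha chain, had 4.38, 5.12 and 4.25 in KO, against 5.10, 4.04 and 5.36 in WT, also inside the span (log2 fold change -0.25, and 0.02 without WT replicate 3).

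Among B-lineage genes KO replicate 2 often held the highest value, and no gene passed between the genotypes. Of the 9, 0 passed (limma, 1 higher and 1 lower at an unadjusted p under 0.05), 7 were positive and the median log2 fold change was 0.18. Without KO replicate 2 the median was -0.13 and 3 were positive. KO replicate 2 held the highest of the 6 values in 6 of the 9 genes, against 12.6% of all genes.

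Among the B-lineage genes this pattern was led by Ebf1, Cd79a, Igll1 and Vpreb1, followed by Blnk. Ebf1, the gene of the factor that starts the B cell programme, had log2 signals of 5.26, 6.66 and 5.23 in KO, against 5.05, 5.04 and 5.41 in WT. Only KO replicate 2 left the level of the other 5 arrays, and the log2 fold change of 0.55 was 0.08 without it. All of these Ebf1 values, the 6.66 included, lie inside the non-blood span. Cd79a, the alpha chain of the B cell receptor signalling pair, had 6.29, 7.34 and 6.11 in KO and 5.77, 6.64 and 6.29 in WT (0.35, and -0.03 without KO replicate 2). Igll1, one part of the surrogate light chain, had 7.19, 8.23 and 7.15 in KO, against 7.16, 7.50 and 7.38 in WT. Vpreb1, its partner in the surrogate light chain and its neighbour on chromosome 16, had 7.66, 8.62 and 7.75 in KO, against 7.47, 7.95 and 8.20 in WT. Igll1 and Vpreb1 had log2 fold changes of 0.18 and 0.14, and both were -0.17 without KO replicate 2. Vpreb1 has a close copy, Vpreb2, with which its probes may share signal, and Vpreb2 had 6.62, 6.93 and 6.49 in KO. Blnk, an adaptor of B cell receptor signalling, had 5.70, 6.19 and 5.38 in KO, against 5.22, 5.33 and 5.22 in WT. Its groups did not overlap, but all values lie inside the non-blood span and it did not pass (0.50, SE 0.21, limma adjusted p = 0.215). KO replicate 2 exceeded both other KO arrays by 0.49 for Blnk. That is less than for Il7r (0.74), Lef1 (0.72), Rag1 (0.70), Dntt (0.66) and Satb1 (0.53).

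The 4 of these genes downstream of Ebf1 in the B cell programme each had their highest value in KO replicate 2. The 250 bases upstream of their transcription starts are shown. They are RefSeq sequences of GRCm38.p6, 5′ to 3′ on the gene's strand, for Igll1 (chr16:16863986-16864235, minus strand), Vpreb1 (chr16:16869256-16869505, minus), Cd79a (chr7:24897247-24897496, plus) and Blnk (chr19:40994222-40994471, minus). Capitals mark, on either strand, the E-box CAGNTG, which E proteins such as those of Tcf3 recognise, and CCCNNGGG, the core of the palindrome that EBF1 recognises.
Igll1: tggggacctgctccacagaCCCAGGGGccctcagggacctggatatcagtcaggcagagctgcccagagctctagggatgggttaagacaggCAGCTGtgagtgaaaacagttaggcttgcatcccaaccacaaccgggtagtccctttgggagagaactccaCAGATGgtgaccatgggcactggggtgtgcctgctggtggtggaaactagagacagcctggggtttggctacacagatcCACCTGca
Vpreb1: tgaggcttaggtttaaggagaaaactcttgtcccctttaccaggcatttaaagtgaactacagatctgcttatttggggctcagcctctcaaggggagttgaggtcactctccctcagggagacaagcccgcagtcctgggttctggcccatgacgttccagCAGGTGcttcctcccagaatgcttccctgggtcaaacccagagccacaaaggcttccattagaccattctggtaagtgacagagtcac
Cd79a: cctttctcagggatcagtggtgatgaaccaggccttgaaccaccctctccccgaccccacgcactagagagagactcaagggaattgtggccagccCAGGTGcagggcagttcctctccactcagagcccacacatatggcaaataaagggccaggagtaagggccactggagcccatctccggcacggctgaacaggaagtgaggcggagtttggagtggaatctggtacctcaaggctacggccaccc
Blnk: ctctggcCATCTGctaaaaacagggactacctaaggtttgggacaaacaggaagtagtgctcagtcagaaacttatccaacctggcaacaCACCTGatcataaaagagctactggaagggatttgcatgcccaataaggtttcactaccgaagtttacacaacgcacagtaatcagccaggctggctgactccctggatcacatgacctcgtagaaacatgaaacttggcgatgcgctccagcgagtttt
An E-box stands in all 4 windows, where 44.8% of the 32851 windows of all genes hold at least 1, and the EBF core stands in that of Igll1, where 11.8% do. The full EBF palindrome, with 1 further base fixed at each end, is in none of the 4 and in 0.779% of all windows. Of the 36 listed genes 29 had an entry, with 44 windows in all, and Tox, Ikzf2, Ikzf3, Tcf4, Ighm, Cd2 and Cd79b had none. Among these 44 windows an E-box occurred in 20, TGGGAA (the Ikaros core) in 11 against 21.6% of all windows, and the NF-κB consensus in 3 (upstream of Bcl11a and Satb1) against 7.25%. The EBF core is part of the full palindrome, and a match describes letters only.

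**Figure D3:**
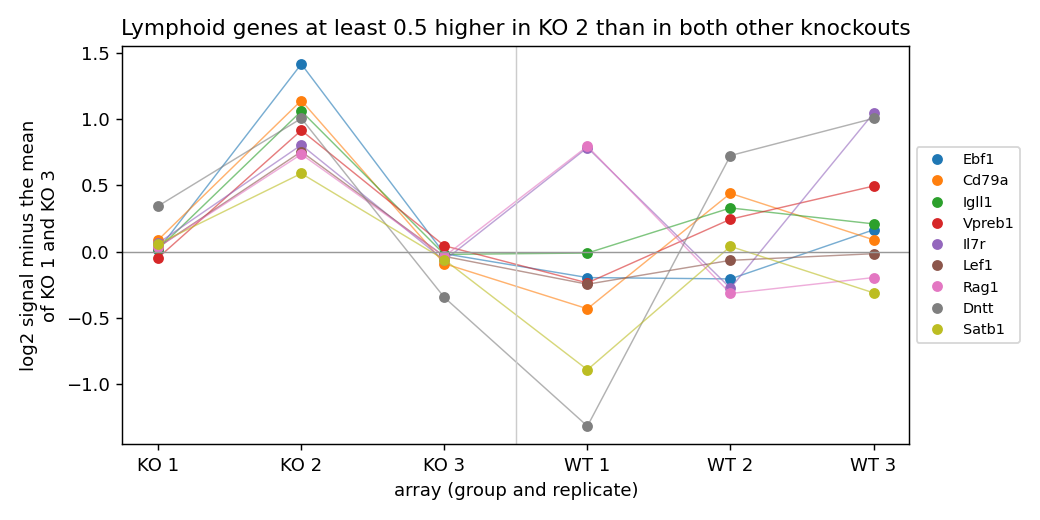
Log2 signal of 9 lymphoid genes in each array (horizontal axis, KO arrays left), as the difference from the mean of KO replicates 1 and 3 (vertical axis). The genes shown were picked because KO replicate 2 exceeded both other KO arrays by at least 0.5. Ebf1 does so by 1.40, with all its values inside the non-blood span.

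KO replicate 2 exceeded both other KO arrays by at least 0.5 on the log2 scale, a step chosen after the values were seen, in 9 of 33 members (Ebf1, Cd79a, Igll1, Vpreb1, Il7r, Lef1, Rag1, Dntt and Satb1). Of all 19938 genes 78 did so, or 0.391%. Ebf1 had the greatest such excess of all genes (1.40), though with all its values inside the non-blood span. Cd79a (1.04), Igll1 (1.03) and Vpreb1 (0.87) ranked 3, 4 and 7. No member exceeded both other arrays by that step in KO replicate 1 (background 1.39%) or KO replicate 3 (0.366%). Vpreb3, Thy1, Tox4 and Lax1, from the lists of further lymphoid genes and family relatives, were also among the 78. Vpreb3, a B cell precursor gene, had 7.92, 8.70 and 7.51 in KO, against 6.39, 7.42 and 7.45 in WT (log2 fold change 0.96, limma adjusted p = 0.192). This is 1 mouse, so the excess has no replicate. Over all genes KO replicate 2 did not stand apart, with a correlation of 0.994 to its nearest array and the highest array weight (2.2). Mature B cell markers averaged 4.64, 4.47 and 4.34 in KO and 4.98, 4.58 and 4.69 in WT, and KO replicate 2 was not raised for them. All 5 measured stayed under the top of the non-blood span in all 6 arrays, so this mean cannot show whether mature B cell RNA differed. Of the 8 neutrophil and monocyte precursor markers, however, all 8 were highest of the 6 arrays in KO replicate 2, with a mean of 10.2 there and of 10.1 and 9.86 in the other KO arrays, and their part in the excess was not tested.

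The heavy chain gene ran the other way. Ighm, the constant region of immunoglobulin M, had log2 signals of 6.57, 6.24 and 6.66 in KO, against 7.24, 6.75 and 7.18 in WT, with no overlap and its lowest value in KO replicate 2. The log2 fold change was -0.56 (SE 0.19, limma adjusted p = 0.156), which did not pass. Its other 2 rows on the array gave -0.30 and 0.03 at lower signals, so the rows disagree. Jchain, a plasma cell marker that joins immunoglobulin M, had 3.37, 3.45 and 3.13 in KO, against 5.13, 3.21 and 7.12 in WT. It was highest in WT replicates 3 and 1, the arrays with the highest Ighm. Only the value in WT replicate 3 lies above the non-blood span, and the part of Jchain in the Ighm difference was not tested. The 4 plasma cell markers differed in sign. Prdm1 and Sdc1 had log2 fold changes of -0.57 and -0.32, inside the non-blood span, and Xbp1 had 0.55, with 8.44, 8.59 and 8.17 in KO against 7.67, 7.97 and 7.89 in WT. Of the 4, 0 passed (limma, 1 higher and 2 lower at an unadjusted p under 0.05). Without WT replicate 1, 1 of the 4 passed as lower, against 1.38% of all genes.

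Pax5, Ikzf3 and Cd79b completed the B-lineage genes. Pax5, which fixes B cell commitment, had 5.75, 6.07 and 5.60 in KO and 5.84, 5.67 and 5.88 in WT, inside the non-blood span (log2 fold change 0.00, 95% interval -0.37 to 0.38). Ikzf3, the gene of Aiolos, had 4.12, 3.94 and 3.83 in KO and 4.81, 3.91 and 4.40 in WT, also inside the span (-0.41). Cd79b, the beta chain beside Cd79a, had 8.78, 8.98 and 8.66 in KO, against 8.68, 8.07 and 9.12 in WT (0.18, and -0.09 without WT replicate 2). Unlike Cd79a it was not highest in KO replicate 2.

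Nkg7, which encodes a granule membrane protein of NK and cytotoxic T cells, rose in KO cells, alone among the T and NK genes. Its log2 signal was 11.21, 11.26 and 11.40 in KO, against 9.83, 10.52 and 10.24 in WT. Every KO value exceeded every WT value, and all lay above the non-blood span. Nkg7 averaged 11.29 ± 0.10 in KO and 10.20 ± 0.34 in WT (SD, n = 3 each), a log2 fold change of 1.09 (SE 0.19, 95% interval 0.66 to 1.53, limma adjusted p = 0.0483), or 2.13-fold higher. The call is at the edge of the threshold. Over 15 alternatives the log2 fold change ran from 0.86 to 1.25, and the call held in 7 of them (adjusted p 0.00394 to 0.263). It was lost under quantile normalization (0.90), median centring (1.24), robust variance estimation (1.09) and without any 1 array other than WT replicate 1, whose omission gave 0.91. The exact permutation p of Nkg7 was 0.1. Other cytotoxic genes did not pass. Prf1, Gzma and Gzmb had log2 fold changes of -0.14, -0.18 and 0.69, where the Gzmb groups overlapped. The markers of neutrophil and monocyte precursors, given above, rose in the same mice, and their part in the Nkg7 result was not tested.

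The upstream 250 bases of Nkg7 are shown because it is the member that rose (RefSeq, GRCm38.p6, chr7:43436888-43437137, plus strand). Capitals mark E-boxes, and neither the EBF core nor the NF-κB consensus was found in these letters.
Nkg7: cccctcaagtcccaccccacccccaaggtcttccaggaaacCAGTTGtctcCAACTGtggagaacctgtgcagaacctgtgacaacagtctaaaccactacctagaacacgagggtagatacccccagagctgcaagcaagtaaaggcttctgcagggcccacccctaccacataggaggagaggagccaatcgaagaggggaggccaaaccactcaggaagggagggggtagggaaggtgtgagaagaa

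The remaining T and NK genes were not shown to lie above background. All 6 of these lay inside the span of non-blood tissue genes in all 6 arrays. Each had a negative log2 fold change, from -0.57 to -0.17 with a median of -0.21 (limma, 0 past the threshold and 1 at an unadjusted p under 0.05). The 27 non-blood tissue genes had the same median, -0.21, with 25 negative. Quantile normalization left 4 of the 6 negative (median -0.06) and 15 of the 27 (median -0.08), and cyclic loess likewise 4 (median -0.07) and 15 (median -0.05). Without WT replicate 1 the medians were -0.20 and -0.11.

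Cd3d, the delta chain of the T cell receptor complex, had 4.12, 3.95 and 4.12 in KO, against 4.67, 4.72 and 4.50 in WT, without overlap. The log2 fold change was -0.57 (SE 0.14, limma adjusted p = 0.0925), and it was -0.55 (adjusted p = 0.0492) without WT replicate 1. Of the 27 non-blood tissue genes, 10 also had groups without overlap, all lower in KO. Of these 27, 1 also passed as lower without WT replicate 1. The neighbours of Cd3d on chromosome 9 encode the other CD3 chains. Cd3e had 5.97, 5.80 and 5.97 in KO and 6.23, 5.97 and 6.15 in WT, where the groups met at 5.97 and were apart by less than 0.01. Cd3g had 4.15, 3.85 and 3.70 in KO, against 4.54, 4.04 and 4.27 in WT, with overlap. Zap70, the kinase of T cell receptor signalling, had 4.45, 4.38 and 4.32 in KO and 4.56, 4.62 and 4.63 in WT, without overlap. The adhesion receptor gene Cd2 and the T cell surface gene Cd5 had log2 fold changes of -0.17 and -0.18 with overlapping groups, and both signs turned under quantile normalization.

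**Figure D4:**
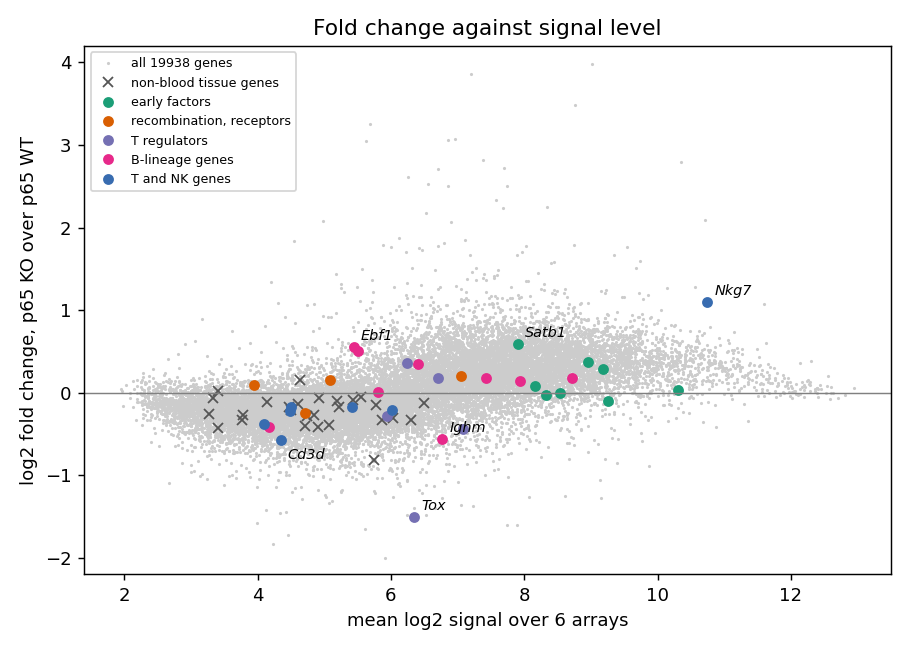
Log2 fold change, KO over WT (vertical axis), against mean log2 signal over the 6 arrays (horizontal axis) for all 19938 genes (grey points), 27 non-blood tissue genes (crosses) and the 33 lymphoid genes (coloured by role). The dim T and NK genes lie among the crosses, slightly below 0, while Tox and Nkg7 lie at the edge of the grey cloud at their level.

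Fold changes depended on signal level across genes, which sets the scale for these shifts. In 3 equal groups of genes by mean level, the median log2 fold change was -0.22, -0.09 and 0.30 from the dimmest to the brightest, and 88.8%, 60.3% and 13.3% of genes were negative. The lymphoid members followed with medians of -0.24 (8 members), 0.00 (13 members) and 0.16 (12 members). In the brightest group, which holds all 8 broad early factors, Igll1, Vpreb1, Cd79b and Nkg7, the members' median was thus below that of the group. Without WT replicate 1 the group medians were -0.09, -0.08 and 0.13, and the members' medians -0.16, -0.10 and 0.00.

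Of 105 further measured genes of lymphoid pathways, in 5 lists, 1 rose and 1 fell (background as above), 103 did not pass, and the median log2 fold change was -0.01. Irf8, a factor shared by monocyte, dendritic and B cell development, had log2 signals of 8.23, 8.15 and 7.66 in KO, against 6.00, 6.40 and 6.65 in WT. It rose by 1.67 (limma adjusted p = 0.0213, and 0.00320 to 0.152 over 15 alternatives). Its 3 WT values lie inside the non-blood span, so the size of the rise is uncertain. Cish, a STAT5-induced inhibitor of interleukin-7 and other cytokine signals, had 6.26, 6.70 and 6.45 in KO and 7.33, 7.74 and 7.58 in WT, and it fell by 1.08 (adjusted p = 0.0431, and 0.00373 to 0.235 over 15 alternatives). The 3 KO values of Cish lie inside the span, which leaves the size of its fall uncertain too.

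Of 16 measured genes around the interleukin-7 and Flt3 receptors, Cish was the call, and 2 were higher and 2 lower at an unadjusted p under 0.05 (limma). Over all genes 21.6% reached that level, the background for each such count in these lists. The higher ones were Il4ra, the interleukin-4 receptor alpha chain (log2 fold change 0.57, adjusted p = 0.165, overlapping groups), and Socs3, an inhibitor of cytokine signalling (0.33, adjusted p = 0.22, no overlap, inside the non-blood span). Flt3 had 7.68, 7.94 and 7.39 in KO and 7.31, 7.45 and 8.08 in WT (log2 fold change 0.06), Stat5a 0.05 and Stat5b 0.06, while Jak1 had -0.14, none past the threshold. Il2rb, the receptor chain of interleukins 2 and 15, had 4.77, 4.83 and 4.88 in KO, against 5.25, 5.43 and 5.33 in WT, without overlap (-0.52, limma adjusted p = 0.0997, and 0.0324 without WT replicate 1), inside the non-blood span. Among 18 measured family relatives none passed (3 lower at an unadjusted p under 0.05), and Tcf7l2, a relative of TCF-1 and Lef1, had -0.57 (adjusted p = 0.187, and 0.0225 without WT replicate 1). Of 33 further progenitor genes Irf8 was the call, and 5 were higher and 2 lower at an unadjusted p under 0.05. Gfi1 and Spi1, factors of blood progenitors and myeloid cells, had log2 fold changes of 0.64 and 0.84 without overlap (limma adjusted p = 0.096 and 0.102), where all Gfi1 values lie inside the non-blood span. Lsp1, a leukocyte actin-binding protein gene, had -0.81 (adjusted p = 0.117, and 0.0374 without WT replicate 1). The 29 further B, T and NK genes had a median of -0.19 with no call (limma, 1 higher and 5 lower at an unadjusted p under 0.05). The 10 joining partners of the recombinase had a median of 0.30 with no call (2 higher at that level), where their mean signal was lowest in WT replicate 1.

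**Figure D5:**
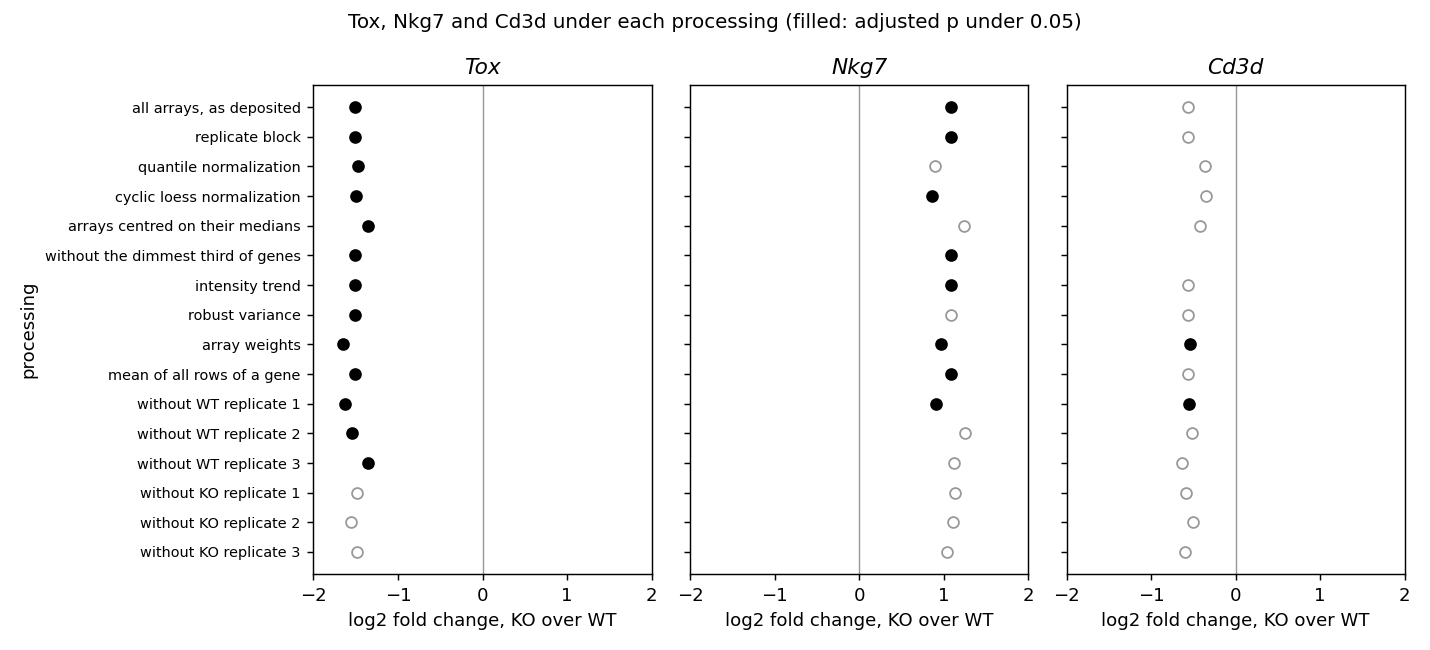
Log2 fold change, KO over WT (horizontal axis), of Tox, Nkg7 and Cd3d under each processing (vertical axis), with filled points for an adjusted p under 0.05. The value of Tox stays between -1.65 and -1.36 and passes in 12 of 15 alternatives, Nkg7 stays between 0.86 and 1.25 and passes in 7, and Cd3d passes in 2 of 14, being absent where dim genes were left out.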

How the data were processed

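The 6 arrays came in a single table of 35557 rows, whose log2 values the authors deposited already normalized. Tools named in the submitters' processing notes are RMA, Partek and Affymetrix Expression Console. RMA yields background-corrected, normalized log2 signals per probe set. The RNA was amplified from small amounts with a NuGEN kit before labelling, per the labels' protocols. The design text names an exon array and the Exon Array Computational Tool, while the row identifiers match the annotation of the Mouse Gene 1.0 ST array, and this was not settled. Array medians ran from 5.72 to 5.98. No arrays held identical values and 0 columns lacked a sample.

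Rows with 1 gene symbol (21789 rows) gave 19938 genes. The other rows, 1621 with several symbols and 12147 with none, were left out. All 33 measured members matched a RefSeq entry by gene identifier. KO was compared with WT in limma 3.58.1 (R 4.3.3), group as the only term, two-sided, with Benjamini-Hochberg adjustment over all genes at 0.05. The test was checked on simulated data with 1 spread per gene in all arrays. That check does not cover an array of lower quality, such as WT replicate 1. The titles name each sample as mouse KLSF with a number, which was read as 1 mouse per array, and n counts these.

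The members, roles and further lists were chosen with earlier results of these data known. Named with values were members that passed, or would without any 1 array, the 2 smallest p-values per role, and then the rest of the list. Tox2, Tox3, Tox4, Vpreb2, Vpreb3, Flt3, Il4ra, Socs3, Spi1, Gfi1, Stat5a, Stat5b, Jak1, the cytotoxic genes and the plasma cell and gate markers were named after their values were seen. Alternatives were the replicate block, quantile, cyclic loess and median scaling, a filter on dim genes, trend, robust variance, array weights, averaging of rows, and leaving out each array. Same-numbered KO and WT arrays deviated together (correlations 0.368, 0.119 and 0.162, all over 0.1). KO replicate 2 with WT replicate 3, and the reverse, gave 0.183 and 0.195, so these correlations do not settle the pairing. The main fit did not use the numbers in the titles, which entered only as the replicate block. The block changed no member's call and moved the count of all genes from 163 to 372.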

Additional observations from a re-analysis of the deposited data

How the results depend on the processing

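Over 15 alternatives and 33 members, 425 of 487 values kept their sign and side of the threshold, and 11 members did so throughout. The count of all genes past the threshold (163) was 372 with the replicate block, 104 under quantile normalization, 505 without the dim genes, 1599 with array weights, and 21 to 929 when 1 array was left out. The count of members past it (2) was 1 under quantile normalization, 1 with arrays centred on their medians, 1 with robust variance, 4 with array weights (Tox, Nkg7, Gata3 and Cd3d), and 0 to 3 when 1 array was left out. The 0 arose without KO replicate 1, 2 or 3, where 22, 21 and 29 of all genes passed, each of them higher. The median of B and T lineage genes (-0.08) was 0.06 with median centring and 0.18 without the dim genes. That filter removes Ikzf3, Cd3d, Cd3g, Cd2 and Zap70 from them. The median of B-lineage genes was -0.13 without KO replicate 2, an omission also examined after seeing the data. Median centring also moved the median of all genes, which was -0.04 as deposited, to 0.10. The replicate block changed no member's call.

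Signs turned in 18 members, none of them past the threshold, and the cause was not tested. Under quantile normalization log2 fold changes were -0.22 for Bcl11a, 0.03 for Cd2, 0.01 for Cd5, -0.07 for Cd79b, -0.14 for Ikzf2 and -0.04 for Vpreb1. With cyclic loess they were -0.22 for Bcl11a, 0.05 for Cd2, -0.14 for Cd79b, -0.03 for Igll1, -0.02 for Ikzf1, -0.22 for Ikzf2, -0.14 for Vpreb1 and 0.00 for Zap70. With median centring they were 0.14 for Sox4, 0.05 for Tcf3 and 0.12 for Tcf4. With array weights they were -0.13 for Bcl11a, -0.42 for Dntt, -0.08 for Ikzf2, -0.01 for Rag2 and -0.01 for Vpreb1. Leaving out 1 array gave -0.17 to 0.16 for Bcl11a, -0.03 to 0.58 for Cd79a, -0.09 to 0.43 for Cd79b, -0.52 to 0.63 for Dntt, -0.17 to 0.36 for Igll1 and -0.09 to 0.23 for Ikzf2. It gave -0.65 to 0.02 for Il7r, -0.13 to 0.11 for Pax5, -0.10 to 0.50 for Rag1, -0.02 to 0.18 for Rag2, -0.19 to 0.10 for Sox4, -0.32 to 0.08 for Tcf3, -0.26 to 0.13 for Tcf4 and -0.17 to 0.31 for Vpreb1. Signals inside the span of non-blood tissue genes limit 19 of the 33 members, whose fold changes may be understated: 14 with all 6 arrays inside it, Tox and Ighm with all KO arrays, and Lef1, Notch1 and Cd79a with all WT arrays.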
